A study of Arabidopsis thaliana with 48 samples.

Results

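Salt added to paraquat was examined as 1 pair of groups, 3 libraries labelled Salt + PQ against 3 labelled PQ, out of 48 libraries in 16 groups. Every gene with a mean normalised count of at least 10 over the 48 libraries was included, which left 21536 of 32833 genes. The seedlings of both groups were wild-type Arabidopsis thaliana of the Col-0 ecotype. They germinated and grew on agar, for 9 to 10 days by the labels and the study's methods, with 0.05 µM paraquat (PQ), at 21°C and a light intensity of 50 µmol per square metre per second. The medium of Salt + PQ held 50 mM NaCl as well, so the paraquat was shared and the salt was the difference. Salt (50 mM NaCl without paraquat) and Control (neither) are given beside them. Each library came from a pool of at least 100 whole seedlings, and the study describes the 3 of a group as biological replicates. In pooled seedlings, fewer cells of a type and less RNA per cell cannot be told apart. The comparison asks what the added salt changed in transcripts of seedlings already on paraquat.

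Paraquat is a herbicide that takes electrons from photosystem I and passes them to oxygen, so that superoxide and hydrogen peroxide form in the chloroplast in the light. Sodium chloride is an osmotic load and, once taken up, an ionic one, to which plants respond through abscisic acid (ABA) and through sodium transporters such as those of the SOS pathway. Heat shock factors, which drive chaperone genes, respond to misfolded protein and to hydrogen peroxide, and so are known from heat as well as from oxidative stress.

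Some libraries of the series went against their labels, and this bears on every comparison here. Salt + PQ, PQ and Salt carry neither heat (HS) nor high light (HL) on their labels. Yet HSP101 (AT1G74310), a disaggregating chaperone induced by heat, had a median normalised count 34.8 times that of Control in Salt + PQ, 141 times in PQ and 54.1 times in Salt, and 16.2 times in the libraries labelled HS. ELIP1 (AT3G22840), an early light-induced protein, stood at 11.3 times Control in Salt + PQ, 47.9 times in PQ and 15.3 times in Salt, and at 53.3 times in HL. The summed level of 14 small heat shock genes exceeded Control by more than 50 times in 6 of the 7 other groups without HS on the label. It lay at or under 1.1 times the highest Control library in 2 of the 8 groups with HS, namely the 2 that carry PQ and HL besides. ELIP1 exceeded Control by more than 10 times in 5 of 7 groups without HL and in 3 of 8 with HL. Whether the labels match the treatments was not tested. Group names below mean the libraries labelled so, no direction below is more certain than those labels, and no analysis without the libraries in doubt was possible, because they are the groups compared.

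**Figure D1:**
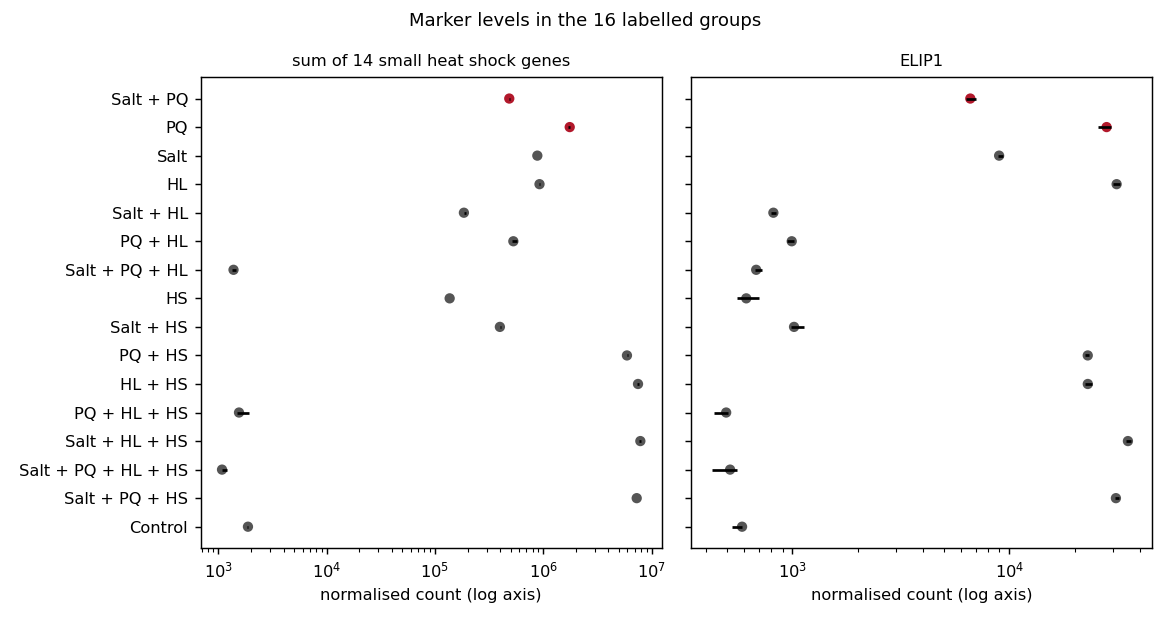
Normalised counts (log axis) of the 14 small heat shock genes summed (left) and of ELIP1 (right) in the 16 groups; points are medians, bars run from the lowest to the highest of 3 libraries, and Salt + PQ and PQ are in red. PQ and Salt + PQ lie far above Control in both panels, and the 3 groups with both PQ and HL and a further stressor lie near Control.

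Reads on genes numbered 76443020 to 78908849 per library in Salt + PQ and 72879198 to 76654945 in PQ. Across genes, Salt + PQ libraries had Spearman correlations of 0.9957 to 0.9969 with Salt libraries, of 0.9821 to 0.9873 with PQ libraries and of 0.9509 to 0.9526 with Control libraries. By this measure Salt + PQ was nearest to Salt. PQ replicate 1 stood apart, with 0.136% of its reads on plastid-encoded genes, against 0.0156% and 0.0158% in the other PQ libraries and 0.0230% to 0.0289% in Salt + PQ. It lay more than 2-fold from the mean log2 level of the other PQ libraries at 267 genes, 80 of them plastid-encoded. Of 82 plastid-encoded genes tested, 0 rose and 15 fell in Salt + PQ (limma, median log2 fold change -0.70), and without PQ replicate 1 the counts were 21 and 2 (median 0.48), so no direction can be given for them.

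Between Salt + PQ and PQ, 6179 genes rose (28.7% of those tested) and 6487 fell (30.1%), 58.8% in all, at an adjusted p under 0.05 by limma on log2(normalised count + 1). Counts of list members below are to be read beside these shares, and a list near them shows no lean of its own. Changes of at least 2-fold were fewer, at 446 genes higher (2.07%) and 819 lower (3.8%). The libraries of Salt + PQ and PQ did not overlap at 12847 genes (59.7%). Most changes were small, with a median absolute log2 fold change of 0.21, against 0.45 for Salt over Control. With library totals made equal, the median over all genes moved by 0.087 and the split became 8510 higher and 4763 lower, so small differences depend on the scaling.

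Chaperone genes were lower in Salt + PQ. Of 14 small heat shock genes tested, 13 fell in Salt + PQ and 0 rose, with a list median of -1.87 on the log2 scale against -0.01 over all genes. The exception, AT5G47600, had a log2 fold change of 0.72 and did not pass (adjusted p = 0.104, limma). Of 20 genes for HSP70, HSP90, HSP101 and their cochaperones, 20 fell and 0 rose (median -1.04). In both lists all the falls held without PQ replicate 1 and with equal library totals.

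The upstream windows of HSP21 (AT4G27670), a chloroplast small heat shock protein, and HSFA2 (AT2G26150), a heat-inducible factor that keeps chaperone genes on, are shown because they carry the heat shock element core GAANNTTC, in capitals. They run from 250 bases before to 50 after the gene start in RefSeq's TAIR10.1 annotation, HSP21 at chr4:13819922-13820221 on the minus strand and HSFA2 at chr2:11135374-11135673 on the plus strand.
HSP21: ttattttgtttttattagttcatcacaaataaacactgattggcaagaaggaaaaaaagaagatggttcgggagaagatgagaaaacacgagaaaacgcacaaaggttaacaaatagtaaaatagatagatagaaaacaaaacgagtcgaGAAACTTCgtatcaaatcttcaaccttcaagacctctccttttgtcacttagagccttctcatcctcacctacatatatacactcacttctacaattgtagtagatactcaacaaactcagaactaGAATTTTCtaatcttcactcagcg
HSFA2: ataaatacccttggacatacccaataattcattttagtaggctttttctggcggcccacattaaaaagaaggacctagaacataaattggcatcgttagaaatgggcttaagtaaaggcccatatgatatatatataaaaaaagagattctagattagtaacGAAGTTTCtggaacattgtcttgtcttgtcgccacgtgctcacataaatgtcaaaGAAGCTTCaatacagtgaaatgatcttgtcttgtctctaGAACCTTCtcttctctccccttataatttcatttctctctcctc
HSP21 held 2 such cores and HSFA2 held 3. The core, which reads alike on both strands, was in 5 of 14 small heat shock windows (35.7%), in 5 of 20 of the larger chaperones (25.0%) and in 11.4% of all 21416 windows of tested genes. It was in 15.1% of windows of genes at least 2-fold lower and in 11.2% of those at least 2-fold higher.

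HSP21 had normalised counts of 7163, 7478 and 7355 in Salt + PQ, against 44391, 45483 and 44674 in PQ. All Salt + PQ libraries lay below all PQ libraries, and both groups were far above Control, whose mean was 3.75. On the log2 scale the fold change came to -2.61 (standard error 0.267, adjusted p = 2.12e-11, limma). HSP101, at chromosome 1 from 27936508 to 27940369, had 38019, 40266 and 38485 in Salt + PQ against 156407, 159545 and 151242 in PQ, which is -2.0 on the log2 scale (standard error 0.039, adjusted p = 3.90e-36, limma). Its mean in Salt + PQ was 25% of that in PQ. HSP70B (AT1G16030), a cytosolic HSP70 with very low unstressed levels, fell further, with 8114, 8441 and 9530 in Salt + PQ against 78626, 78682 and 72311 in PQ and a log2 fold change of -3.14. AT1G52560, annotated as an HSP20-like chaperone, had the lowest value of the small heat shock list at -3.20, and HSP23.6-MITO (AT4G25200), the mitochondrial one, was at -2.71.

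The fall was partial for the genes that PQ held far above Control, and it differed by chaperone. HSC70-1 (AT5G02500), the constitutive cytosolic HSP70, fell by 0.22 on the log2 scale and HSP90.3 (AT5G56010) by 0.15, whereas CLPB3 (AT5G15450), the plastid disaggregase, fell by 2.01 and BAG6 (AT2G46240), a cochaperone, by 2.09. HSFA2 had 16930, 17860 and 17578 in Salt + PQ against 35286, 35681 and 35122 in PQ, a log2 fold change of -1.02. Of 19 heat shock factor genes, 10 fell and 4 rose. HSFA7B (AT3G63350) fell most, with 93.1, 106 and 107 in Salt + PQ against 540, 514 and 506 in PQ (log2 -2.34), while HSFA8 (AT1G67970) rose by 0.63 and HSFA3 (AT5G03720) by 0.55. MBF1C (AT3G24500), a coactivator needed for basal thermotolerance, had 25985, 28581 and 29128 in Salt + PQ against 43878, 38783 and 40427 in PQ (log2 -0.56). DREB2A (AT5G05410), a factor of dehydration and heat, did not pass, at 9727, 9924 and 9544 in Salt + PQ against 10000, 10862 and 10006 in PQ (log2 -0.08, adjusted p = 0.0628, limma).

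**Figure D2:**
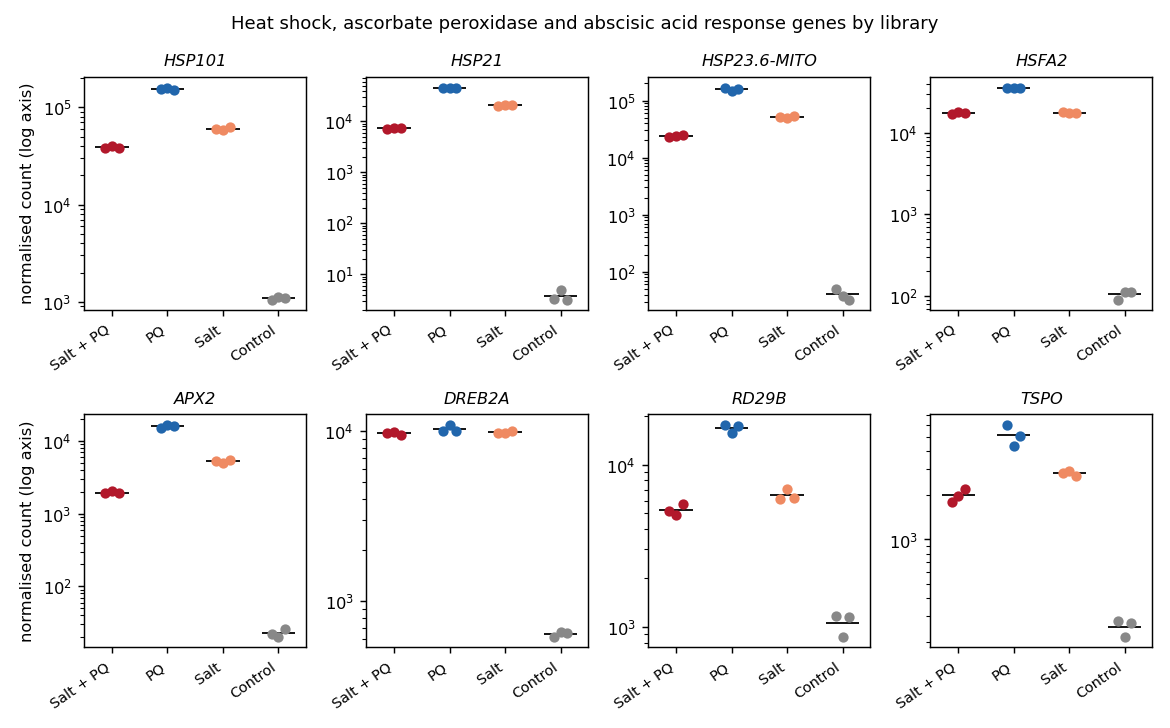
Normalised counts (log axis) per library of 8 stress genes; points are libraries and lines are means of 3. At HSP101, HSP21, HSP23.6-MITO, HSFA2, APX2 and RD29B all Salt + PQ libraries lie below all PQ libraries and above all Control libraries.

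The antioxidant genes split. Of 27 superoxide dismutase, catalase and ascorbate cycle genes, 18 fell and 5 rose (median -0.19). With equal library totals 12 were lower and 6 higher (median -0.10). APX2 (AT3G09640), a stress-induced cytosolic ascorbate peroxidase, had 1894, 2019 and 1902 in Salt + PQ against 15172, 16468 and 15898 in PQ, far apart (log2 -3.03, standard error 0.109, adjusted p = 1.81e-26, limma). APX1 (AT1G07890), the main cytosolic form, differed little. It had 160639, 175956 and 164847 in Salt + PQ against 191446, 171354 and 177844 in PQ, and although it passed the test (log2 -0.11, adjusted p = 0.00373, limma) the groups overlapped. CSD1 (AT1G08830) and CSD2 (AT2G28190), the cytosolic and plastid copper/zinc superoxide dismutases, had log2 fold changes of -0.95 and -1.16. CAT3 (AT1G20620) rose by 0.57, CAT1 (AT1G20630) by 0.50 and TAPX (AT1G77490), the thylakoid ascorbate peroxidase, by 0.48. Of 11 genes for alternative oxidases and mitochondrial stress, 9 fell and 0 rose (median -1.21). AT2G21640, annotated as a marker of oxidative stress, had 1230, 1097 and 1307 in Salt + PQ against 5544, 5378 and 5670 in PQ (log2 -2.19), and AOX1A (AT3G22370), the main stress-induced alternative oxidase, fell by 1.37. Among 26 tau glutathione S-transferases, 12 fell and 4 rose. RBOHD (AT5G47910), the NADPH oxidase of systemic signalling, had 3735, 3935 and 3827 in Salt + PQ against 4132, 4267 and 4510 in PQ (log2 -0.17), and 5 of 8 RBOH genes fell and 0 rose.

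Iron genes as a list stood near the shares over all genes (28.7% higher and 30.1% lower), with 8 of 22 higher and 5 lower. The ferritins, which store iron, differed among themselves: FER1 (AT5G01600) rose by 0.19 and FER3 (AT3G56090) by 0.49, while FER4 (AT2G40300) fell by 0.37 and FER2 (AT3G11050), the seed form, by 1.51. NEET (AT5G51720), an iron-sulphur protein of iron and reactive oxygen balance, had 6460, 6078 and 6467 in Salt + PQ against 7964, 6754 and 6753 in PQ and did not pass (log2 -0.17, adjusted p = 0.0581, limma).

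ABA-responsive lists were mostly lower. All 9 clade A PP2C phosphatases, which hold ABA signalling in check and are themselves induced by ABA, fell (median -0.78), and 8 did so with equal library totals. Of 23 dehydrins and RD/COR proteins, 19 fell and 3 rose (median -0.51). Of 7 galactinol and raffinose genes, 5 fell and 1 rose (median -1.08).
RD29B (AT5G52300), a classic ABA target, is shown from chr5:21236771-21237070 on the plus strand because the ABA response element core ACGTG, in capitals, occurs there 4 times over both strands.
RD29B: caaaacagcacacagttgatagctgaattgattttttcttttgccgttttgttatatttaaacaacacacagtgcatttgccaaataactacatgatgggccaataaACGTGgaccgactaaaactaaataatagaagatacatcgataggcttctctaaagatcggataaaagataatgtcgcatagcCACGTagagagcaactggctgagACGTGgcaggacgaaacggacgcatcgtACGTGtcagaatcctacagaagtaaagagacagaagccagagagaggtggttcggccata
That core, searched on both strands so that CACGTG counts on each, was in 42.8% of windows of genes at least 2-fold lower, in 28.9% of those at least 2-fold higher and in 28.0% of all. It was in 14 of 23 dehydrin and RD/COR windows (60.9%). The DRE core CCGAC was in 17.5% of the lower, 12.1% of the higher and 16.0% of all windows.

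RD29B had 5143, 4878 and 5733 in Salt + PQ against 17524, 15692 and 17409 in PQ, with no overlap (log2 -1.69, standard error 0.109, adjusted p = 1.50e-17, limma). Its neighbour RD29A (AT5G52310) had 27599, 28428 and 27601 in Salt + PQ against 34578, 33851 and 36597 in PQ, a smaller fall (log2 -0.33). RAB18 (AT5G66400), a dehydrin, had 11506, 12440 and 12228 in Salt + PQ against 14077, 12675 and 14485 in PQ (log2 -0.19, adjusted p = 0.0144, limma). NCED3 (AT3G14440), the rate-limiting enzyme of stress-induced ABA synthesis, had 1085, 1176 and 1028 in Salt + PQ against 2338, 2227 and 2169 in PQ (log2 -1.03), and ABA2 (AT1G52340), a later enzyme, 557, 500 and 549 against 675, 625 and 622 (log2 -0.26). GOLS1 (AT2G47180) and GOLS2 (AT1G56600), galactinol synthases, had log2 fold changes of -1.70 and -1.64. AHG1 (AT5G51760), a PP2C, fell by 1.83. The ABA receptors ran otherwise, with 6 of 9 higher and 2 lower, of which PYL6 (AT2G40330) rose by 1.12 and PYL8 (AT5G53160) by 0.62.

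Of 16 sodium and potassium transport genes, 4 rose and 4 fell (median 0.06), near the 28.7% higher and 30.1% lower over all genes. SOS1 (AT2G01980), the plasma membrane sodium exporter, had 2154, 2098 and 2148 in Salt + PQ against 1960, 2123 and 2085 in PQ and did not pass (log2 0.05, standard error 0.041, adjusted p = 0.261, limma). Neither did SOS2 (AT5G35410), its kinase, at 467, 468 and 477 against 461, 479 and 419 (adjusted p = 0.447, limma), nor HKT1 (AT4G10310), the sodium retrieval transporter, at 423, 387 and 344 against 393, 384 and 351 (adjusted p = 0.838, limma). The groups overlapped at these 3 genes. NHX1 (AT5G27150), a vacuolar exchanger, had 8090, 8137 and 8108 in Salt + PQ against 8686, 8501 and 8409 in PQ (log2 -0.07, adjusted p = 0.0619, limma). SOS3 (AT5G24270), the calcium sensor of SOS2, fell by 0.36, and NHX2 (AT3G05030) by 0.77. CBL10 (AT4G33000), a shoot calcium sensor of the pathway, rose by 0.73. Of 10 proline genes, 4 rose and 4 fell (median 0.03). P5CS1 (AT2G39800), the first enzyme of proline synthesis, had 19435, 21244 and 19655 in Salt + PQ against 37273, 38796 and 40633 in PQ (log2 -0.95). The proline dehydrogenase gene, listed as ERD5 (AT3G30775), had 28967, 30791 and 29243 in Salt + PQ against 8084, 10012 and 9415 in PQ (log2 1.70, standard error 0.055, adjusted p = 4.87e-28, limma). The groups did not overlap at either gene. P5CR (AT5G14800), the second enzyme of synthesis, fell by 0.26 and P5CDH (AT5G62530), the second of breakdown, by 0.35. P5CR shares sequence with other loci. AT5G38710, annotated with the same product as ERD5, rose by 0.34 and PROT3 (AT2G36590), a proline transporter, by 0.27. P5CS2 (AT3G55610), the other synthase, had a log2 fold change of 0.01 and did not pass (adjusted p = 0.871, limma).

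Defence genes went both ways. Of 9 jasmonate and ethylene defence genes, 6 rose and 2 fell (median 1.52). Of 16 salicylic acid genes, 8 fell and 4 rose, of 11 camalexin and indole genes 10 fell and 0 rose (median -0.81), and of 15 stress WRKY factors 9 fell and 2 rose (median -0.53), or 9 and 4 with equal library totals.
PDF1.2A (AT5G44420), a defensin of the jasmonate and ethylene branch, is shown from chr5:17907589-17907888 on the minus strand with its GCC box GCCGCC in capitals, and WRKY30 (AT5G24110) from chr5:8154661-8154960 on the minus strand with the W-box core TTGAC in capitals, since PDF1.2A was among the largest rises and WRKY30 among the falls of its list.
PDF1.2A: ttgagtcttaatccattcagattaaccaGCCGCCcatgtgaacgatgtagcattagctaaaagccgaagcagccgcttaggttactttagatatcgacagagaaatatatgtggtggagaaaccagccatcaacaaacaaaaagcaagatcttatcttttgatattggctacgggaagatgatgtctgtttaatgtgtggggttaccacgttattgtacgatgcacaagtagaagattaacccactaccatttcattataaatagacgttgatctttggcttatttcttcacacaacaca
WRKY30: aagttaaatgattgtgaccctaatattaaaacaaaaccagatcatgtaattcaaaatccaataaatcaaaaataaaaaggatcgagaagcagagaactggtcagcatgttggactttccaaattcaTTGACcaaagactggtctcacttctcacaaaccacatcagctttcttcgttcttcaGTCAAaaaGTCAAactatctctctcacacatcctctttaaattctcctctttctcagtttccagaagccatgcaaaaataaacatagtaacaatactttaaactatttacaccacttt
The GCC box was in 3 of 9 jasmonate and ethylene defence windows (33.3%) and in 2.67% of all windows, but in 2.69% of genes at least 2-fold higher. The W-box core was in 59.1% of windows of genes at least 2-fold lower, 46.2% of those at least 2-fold higher and 50.9% of all.

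PDF1.2A had 96.8, 111 and 118 in Salt + PQ against 9.15, 14.2 and 4.31 in PQ, low in every PQ library (log2 3.54, standard error 0.410, adjusted p = 5.47e-10, limma). PDF1.3 (AT2G26010), its relative on chromosome 2 from 11087280 to 11088001, had 167, 197 and 166 against 14.2, 13.2 and 11.8 (log2 3.65). Both were higher still in Salt, at means of 613 and 972. ORA59 (AT1G06160), the factor that integrates the 2 hormones at these defensins, rose by 1.52. PR4 (AT3G04720), a chitin-binding protein, and PR3 (AT3G12500), a chitinase, had log2 fold changes of -0.24 and -0.75. CYP71A12 (AT2G30750), a cytochrome P450 of indole metabolism, had 81.2, 45.7 and 106 in Salt + PQ against 860, 960 and 918 in PQ (log2 -3.62, standard error 0.269, adjusted p = 1.55e-15, limma). WRKY30 had 63.0, 57.4 and 49.9 against 229, 264 and 309 (log2 -2.21). ALD1 (AT2G13810) and FMO1 (AT1G19250), which make the pipecolate signals of systemic resistance, had log2 fold changes of -3.06 and -2.91, while PR5 (AT1G75040), a thaumatin-like protein, rose, with 172, 154 and 152 in Salt + PQ against 61.0, 64.1 and 66.7 in PQ. WRKY70 (AT3G56400), a salicylic acid factor, rose by 0.45.

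Nitrogen and carbon genes were mostly higher. Of 7 nitrate uptake and assimilation genes, 5 rose and 1 fell (median 0.72), and of 13 sugar starvation and class II TPS genes, 11 rose and 1 fell (median 0.52). Of 11 starch breakdown genes, 8 rose and 2 fell (median 0.32). NIA1 (AT1G77760), a nitrate reductase on chromosome 1 from 29235721 to 29239484, had 64756, 70109 and 66274 in Salt + PQ against 14003, 12061 and 13268 in PQ, with all Salt + PQ libraries far above (log2 2.36, standard error 0.040, adjusted p = 4.79e-38, limma). NIA2 (AT1G37130), the major isoform, had 194310, 213735 and 199005 against 106607, 102722 and 109656 (log2 0.93). NPF7.3 (AT1G32450), which loads nitrate into the xylem, rose by 1.19, and NPF7.2 (AT4G21680), which unloads it, fell by 0.54. ASN1 (AT3G47340), the dark-induced asparagine synthetase, had 62471, 64732 and 64678 in Salt + PQ against 18817, 22684 and 24557 in PQ (log2 1.55). DIN10 (AT5G20250), a raffinose-hydrolysing dark-inducible protein, rose by 1.46 and BCAT2 (AT1G10070), of branched-chain amino acid breakdown, by 1.61. The exception in starch was BAM1 (AT3G23920), the stress-induced β-amylase, which fell by 1.02.

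**Figure D3:**
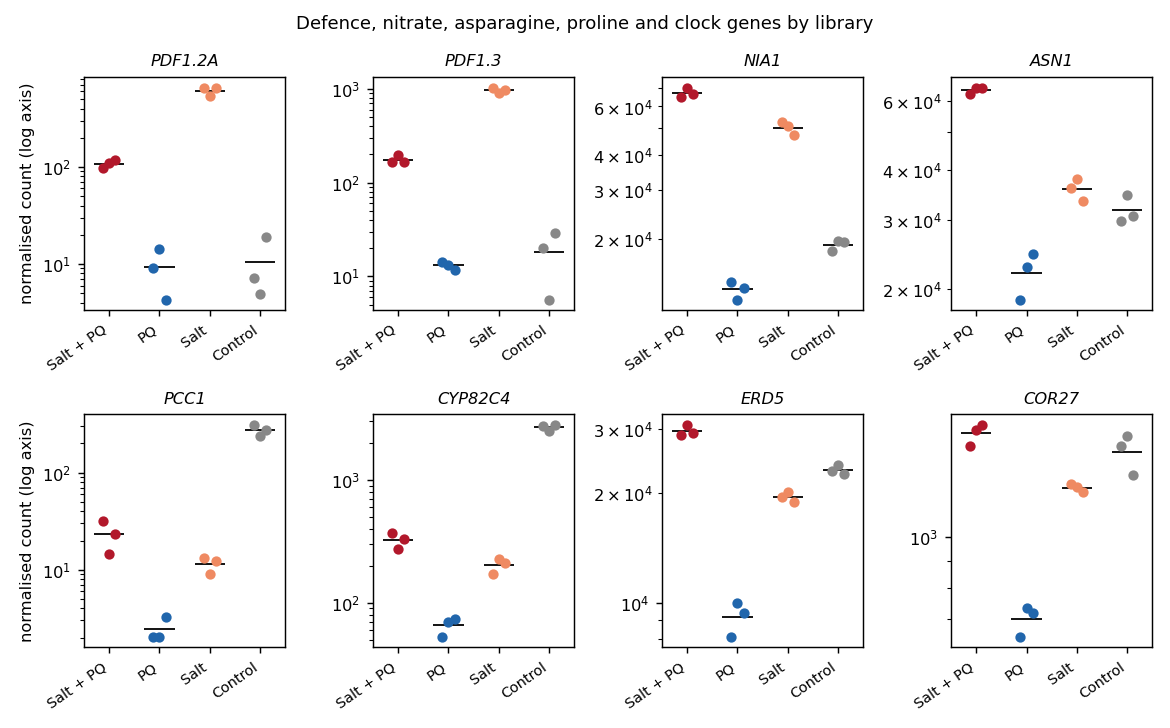
Normalised counts (log axis) per library of 8 genes, with points for libraries and lines for means of 3. Salt + PQ libraries lie above PQ libraries at PDF1.2A, PDF1.3, NIA1, ASN1, PCC1, CYP82C4, ERD5 and COR27, and the Control level lies on either side of them. Reads of PCC1 may be shared with other loci.

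Clock genes moved in both directions. Of 20, 12 rose and 6 fell (median 0.32). LHY (AT1G01060), a morning repressor, had 2869, 2671 and 2678 in Salt + PQ against 6438, 6732 and 7034 in PQ, so every Salt + PQ library lay below. CCA1 (AT2G46830), its partner, fell by 0.85, and PRR5 (AT5G24470), a later repressor, rose by 0.92. COR27 (AT5G42900), a cold-regulated evening gene, had 1481, 1586 and 1618 in Salt + PQ against 649, 734 and 720 in PQ (log2 1.16, standard error 0.065, adjusted p = 1.32e-19, limma). The evening element AAATATCT, searched on both strands, was in 11.2% of windows of genes at least 2-fold higher, 5.26% of those at least 2-fold lower and 5.82% of all. The labels give no hour of harvest, and its part in the clock genes was not tested.

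Of 39 photosystem and light-harvesting genes, 14 rose, 4 fell and 21 did not pass (median 0.04), beside 28.7% higher and 30.1% lower over all genes. With equal library totals 23 were higher and 2 lower, and without PQ replicate 1 the counts were 17 and 2. The median was -0.04 without PQ replicate 2 and -0.02 without Salt + PQ replicate 2. LHCB1.4 (AT2G34430), a light-harvesting protein, had 173844, 214024 and 203686 in Salt + PQ against 101936, 84524 and 106811 in PQ (log2 1.01), and its close copy LHCB1.1 (AT1G29920) had 86268, 95297 and 87144 against 103991, 90709 and 99667 (log2 -0.13). Reads of LHCB1.4 and LHCB1.1 may be shared with other loci. After quantile normalisation LHCB1.1 was called higher, and PSBO2 (AT3G50820, log2 -0.22 as given) did not pass. ELIP1 and ELIP2 (AT4G14690) had log2 fold changes of -2.06 and -1.72. Of 19 flavonoid genes, 13 fell and 1 rose (median -0.81), the exception being MYBL2 (AT1G71030), a repressor of the pathway, which rose by 1.71.

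Of 13 DREB, CBF and ZAT genes, 6 fell and 3 rose (median -0.09). ZAT12 (AT5G59820), a zinc finger factor of oxidative and light stress, had 1415, 1519 and 1499 in Salt + PQ against 2859, 3140 and 2708 in PQ (log2 -0.97, standard error 0.068, adjusted p = 2.01e-16, limma). The 3 CBF genes, cold acclimation factors that share a cluster on chromosome 4, were the rises. CBF2 (AT4G25470) had 255, 221 and 263 in Salt + PQ against 130, 114 and 132 in PQ (log2 0.97), CBF1 (AT4G25490) rose by 0.88 and CBF3 (AT4G25480) by 0.60. Of 10 stress NAC factors, 5 rose and 4 fell. NAC13 (AT1G32870), a factor of mitochondrial retrograde signalling, had 5065, 5060 and 5115 in Salt + PQ against 14547, 14795 and 14546 in PQ, a wide gap (log2 -1.53), while NAC055 (AT3G15500), of jasmonate and ABA responses, rose by 0.45.

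Ethylene genes moved both ways. ACO4 (AT1G05010), an ACC oxidase of the last step of synthesis, rose by 0.93. Some ACC synthases, of the step before it, fell. ACS7 (AT4G26200) had 510, 535 and 620 in Salt + PQ against 1659, 2308 and 1642 in PQ (log2 -1.74), and ACS2 (AT1G01480) had 106, 108 and 129 against 388, 448 and 376 (log2 -1.81). Over the 16 ethylene and stress ERF genes tested, 7 rose and 7 fell. In jasmonate synthesis and its JAZ repressors, 9 of 23 rose and 8 fell (12 and 5 with equal library totals), with AOC1 (AT3G25760), an allene oxide cyclase, at 0.60 on the log2 scale and LOX4 (AT1G72520), a lipoxygenase, at -1.64.

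Growth, transport and metabolism lists were mixed. Of 12 Aux/IAA genes, 6 rose and 2 fell, IAA29 (AT4G32280) by 1.03 upward, with 82.1, 65.2 and 91.3 in Salt + PQ against 42.7, 38.7 and 33.4 in PQ. Of 18 aquaporins, 7 rose and 7 fell, beside 28.7% higher and 30.1% lower over all genes. TIP2;1 (AT3G16240), of the vacuole membrane, rose by 0.73 and PIP2;4 (AT5G60660), of the plasma membrane, fell by 0.85. Of 9 phosphate starvation genes, 7 fell and 1 rose, and PS2 (AT1G73010), a phosphatase, had 444, 423 and 376 in Salt + PQ against 842, 913 and 941 in PQ (log2 -1.12). Of 15 aliphatic glucosinolate genes, 8 fell and 3 rose, among the rises MYB28 (AT5G61420), the regulator of the pathway, at 0.55. In the ER unfolded protein response 10 of 18 fell and 5 rose, whereas with equal library totals 6 were lower and 7 higher. ERDJ3A (AT3G08970), a lumenal DnaJ protein, fell, with 6504, 6749 and 6507 in Salt + PQ against 13762, 14811 and 13849 in PQ. Of 18 chlorophyll synthesis genes 9 fell and 3 rose, and with equal library totals 8 were lower and 7 higher. GUN5 (AT5G13630), the H subunit of magnesium chelatase, fell by 0.56. Of 19 Rubisco and Calvin cycle genes 11 fell and 3 rose, with equal library totals 7 were lower and 6 higher, and the median (-0.10) was 0.05 after quantile normalisation. RBCS1A (AT1G67090), a Rubisco small subunit, fell by 0.38 and RBCS2B (AT5G38420) rose by 0.23.

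Summed root-enriched and stomatal lineage markers differed between the groups, while those of seed and photosystem markers overlapped. The summed level of 18 root-enriched markers ran from 112809 to 124651 in Salt + PQ and from 175153 to 192275 in PQ, with 13 of 18 lower and 3 higher and none at 0 in any library. The 7 stomatal lineage markers summed to 2995 to 3226 in Salt + PQ and 1609 to 1844 in PQ, with 5 of 7 higher, 0 lower and none at 0. FAMA (AT3G24140), the factor of guard cell identity, rose by 1.06. The 10 seed storage and oil body markers summed to 1310 to 1753 in Salt + PQ and 1000 to 1380 in PQ. The 40 photosystem markers overlapped, at sums of 4048316 to 4523933 in Salt + PQ and 3777957 to 4273208 in PQ, and 1 of them was at 0 in every library. The part of tissue makeup in the results above was not tested.

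Among the 10 largest falls of genes with a mean count of at least 50, AT5G53680, annotated as an RNA-binding protein, led with 17.3, 7.78 and 19.8 in Salt + PQ against 647, 773 and 509 in PQ (log2 -5.41, standard error 0.314, adjusted p = 4.55e-19, limma). MRN1 (AT5G42600), the marneral synthase of a triterpene cluster, had 77.6, 67.1 and 67.8 against 1934, 1466 and 1325 (log2 -4.44), and AGP30 (AT2G33790), a root arabinogalactan protein, 71.2, 39.9 and 50.8 against 684, 515 and 576 (log2 -3.46). FTSH6 (AT5G15250), a plastid protease, fell by 3.52. AT5G54450, AT2G18190, AT5G33355, CWINV5 (AT3G13784) and AT2G42065 had log2 fold changes of -4.49, -4.10, -3.92, -3.26 and -3.25. Of these 10, 3 were higher and 4 lower in Salt than in Control. Among the 10 largest rises, EXPA8 (AT2G40610), an expansin of cell wall loosening, had 2262, 2349 and 2218 in Salt + PQ against 372, 356 and 381 in PQ (log2 2.62). AT2G33830, a dormancy and auxin associated protein, had 18221, 19003 and 18540 against 3792, 3282 and 3577 (log2 2.39). AACT1 (AT5G61160), AT5G42530, AT5G62360, AT1G15125 and AT3G16670 rose by 2.72, 2.62, 2.47, 2.39 and 2.38. Of those 10, 8 were higher and 2 lower in Salt than in Control.

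**Figure D4:**
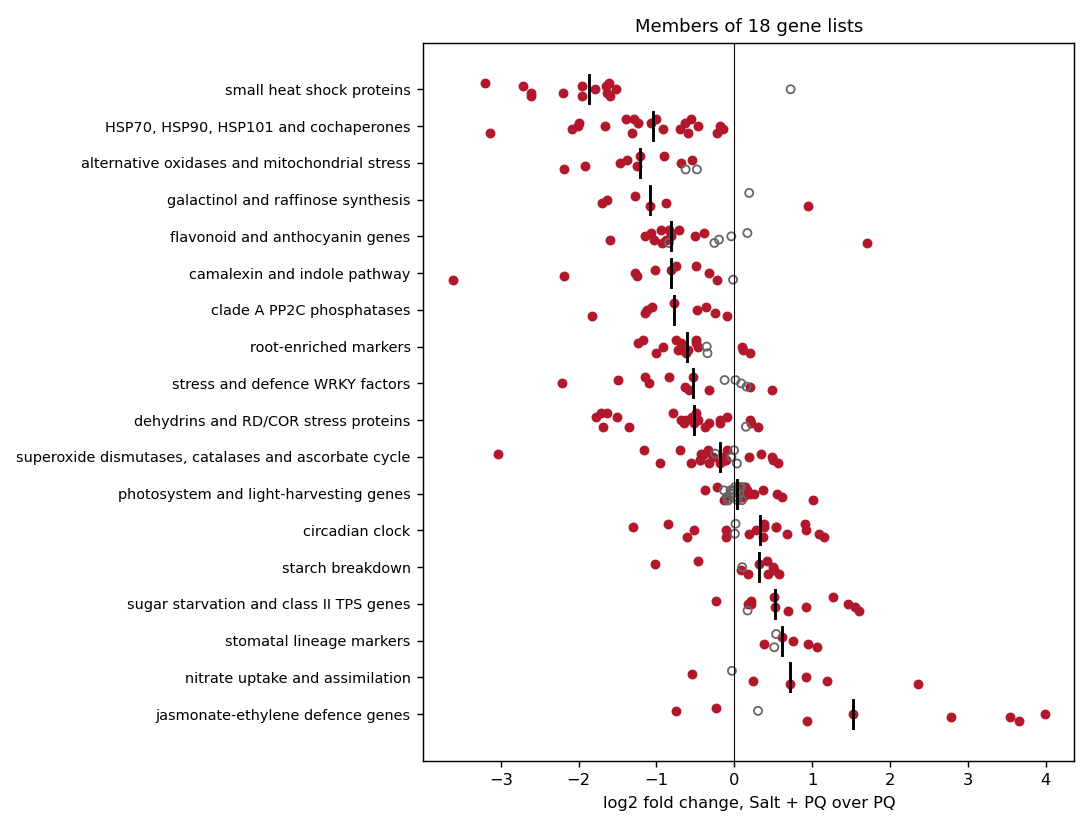
Log2 fold change of Salt + PQ over PQ for each tested member of 18 gene lists; filled points passed the test (limma, adjusted p under 0.05), open points did not, and bars are list medians. Small heat shock genes centre on -1.87 and jasmonate and ethylene defence genes on 1.52.

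Whether salt differed in the same way without paraquat was asked by setting Salt over Control beside Salt + PQ over PQ. These 2 comparisons share no library. Salt over Control called 8732 genes higher (40.5%) and 8428 lower (39.1%), 79.7% in all. The difference between the 2 fold changes passed at 15695 genes (72.9%), positive at 35.6% and negative at 37.3% of genes, and 5204 genes (24.2%) were called in opposite directions, against 5419 (25.2%) in the same one. Of the opposite calls, 2860 (13.3% of genes) were lower in Salt + PQ than in PQ and higher in Salt than in Control, and 10.9% of genes were the reverse. Across genes, which are not independent replicates, the 2 fold changes had a Pearson correlation of -0.10. All 13 small heat shock genes that fell in Salt + PQ were higher in Salt than in Control, where the list median was 9.87. So were 19 of the 20 larger chaperones, all 9 PP2C genes, and 19 dehydrin and RD/COR genes of 23. At all 14 small heat shock genes the mean in Salt + PQ was below that in Salt too, and at 13 it lay between the Control and PQ means, as it did at 44.5% of all genes. The 7 nitrate genes had medians of 0.72 for Salt + PQ over PQ and -0.07 for Salt over Control, the difference was called positive at 6 of them and negative at 0, and 2 were called in opposite directions.

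**Figure D5:**
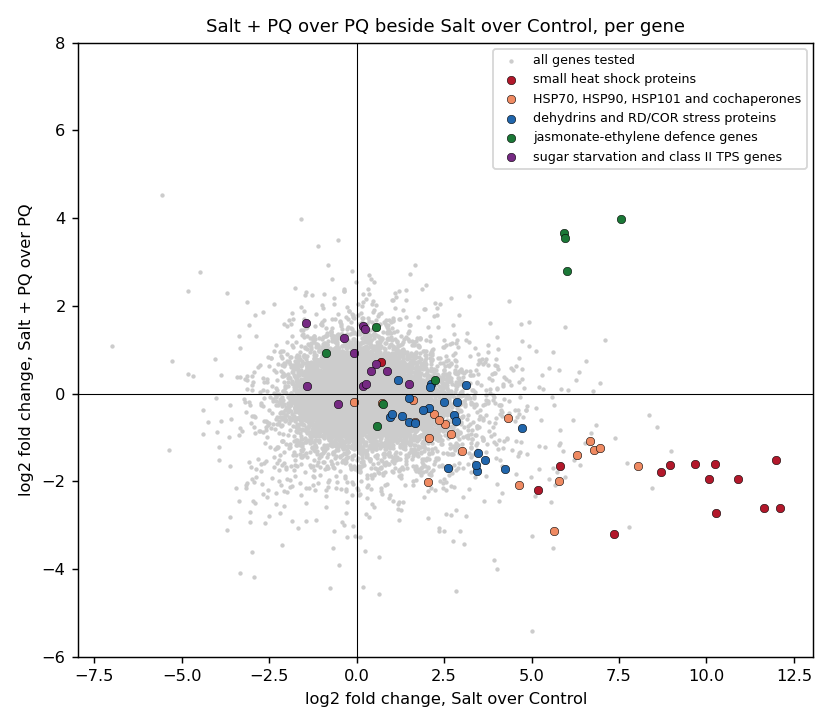
Log2 fold change of Salt + PQ over PQ (vertical) beside Salt over Control (horizontal) for each of 21536 genes, with 5 lists coloured. Small heat shock genes lie low and to the right, and 6 of 9 jasmonate and ethylene defence genes were called higher on the vertical axis.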

How the data were processed

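RNA from pooled seedlings was sequenced by the authors, checked with FastQC 0.11.7, aligned to TAIR10 and counted with STAR 2.4.0.1. The deposited signal values are reads per gene divided by 1 DESeq2 (1.20.0) size factor per library, so they keep no length scaling. Whole reads were recovered from all values (100%, tolerance 0.001). Whether reads were counted by strand is not given in the sources used here, and 51 of 251 named genes overlap a gene on the opposite strand only and 7 one on the same strand. Words of 50 bases were unique in the genome for at least 90% of the span of all but 10 named genes, which are uncertain (PHT1;1, PCC1, PIP2;3, AT5G33355, LHCB1.1, LHCB1.4, P5CR, RBCS2B, AT2G04100 and CYCB1;2).

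The test was limma 3.58.1 (R 4.3.3) on log2(normalised count + 1), with 48 libraries and 16 groups in 1 fit, Benjamini-Hochberg adjustment over 21536 genes and a threshold of 0.05. Fold changes on this scale understate the changes of low genes. The alternatives were pseudocounts of 0.1 and 10, no filter, only the groups compared, scaling to the same total, quantile normalisation and a replicate block. Others were edgeR 4.0.16, DESeq2 1.42.0, a 2-fold limit and each library of the groups compared left out. For the differences only Salt + PQ and PQ libraries were left out. The named genes were the 10 largest rises and falls among called genes with a mean of at least 50 and no overlap, the 4 most positive and most negative differences, up to 3 called genes in each direction per list, and 22 stress genes. Members and lists (44 lists, 643 genes tested) were chosen with earlier results of these data known. The step was tested on simulated data. Names, positions and promoter sequences come from RefSeq's TAIR10.1, matched by identifier for 32548 of 32833 genes. Some of the named genes, and 1 of the promoter windows read, are not reported here.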

Additional observations from a re-analysis of the deposited data

Results flagged for a closer look

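The difference between the fold change of Salt + PQ over PQ and that of Salt over Control was tested as an interaction term in limma, and 15695 genes passed at an adjusted p under 0.05. Among them were all 5204 genes whose 2 fold changes were called in opposite directions, calls that nearly fix a passing difference in advance. The values below are the interaction terms on the log2 scale, negative where the fold change was lower with paraquat than without it. They come from the libraries labelled so, some of which went against their labels.

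The most negative were at small heat shock genes that were near 0 in Control, at -14.71 for HSP21, -14.25 for ATHSP22.0, -13.51 for AT1G53540 and -13.00 for HSP23.6-MITO. Over the 14 small heat shock genes the median was 9.87 for Salt over Control and -1.87 for Salt + PQ over PQ. Most of the size thus lay in Salt over Control, and with Control near 0 it depends on the pseudocount. Other heat and light-stress genes gave -10.81 for APX2, -8.40 for HSFA2, -7.79 for HSP101, -4.88 for MBF1C, -4.01 for DREB2A, -2.77 for ZAT12 and -2.12 for APX1. ABA and osmotic genes gave -4.30 for RD29B, -2.80 for NCED3, -2.67 for RAB18, -2.39 for RD29A, -0.88 for P5CS1 and -0.45 for ABA2. Sodium genes gave -1.04 for HKT1, -0.96 for SOS3 and -0.56 for NHX1. Over the 16 sodium and potassium transport genes, 8 differences were called negative and 5 positive. Iron and reactive oxygen genes gave -1.95 for FER1, -1.33 for NEET and -0.43 for RBOHD. The iron list went the other way, with 12 of 22 differences called positive and 7 negative (median 0.56). Of 8 RBOH genes, 3 differences were called positive and 3 negative.

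The most positive differences were 7.26 for PCC1 (AT3G22231), a gene controlled by pathogens and the clock, 7.16 for AT3G01260, 6.03 for AT3G54530 and 6.01 for CYP82C4 (AT4G31940), a cytochrome P450 of coumarin synthesis. PCC1 averaged 23.4 ± 8.68 in Salt + PQ (SD, n = 3) and had 2.03, 2.03 and 3.23 in PQ, with means of 11.5 in Salt and 275 in Control, and only 63.7% of its 50-base words were unique in the genome, so reads may be shared with other loci. AT3G54530 did not pass in Salt + PQ over PQ (adjusted p = 0.147, limma). ERD5 had a difference of 1.94.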

How the results depend on the processing

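Depth was even and high, so counting error limits few of the genes named, but 3 libraries a group leave an exact permutation test of a single gene unable to go below p = 0.1, and p-values rest on limma's pooled spread. With a fold change of at least 2 also asked, 446 genes were higher and 819 lower in Salt + PQ. The replicate numbers did not pair libraries (mean correlation of same-numbered deviations -0.00029, and 0.067, -0.0063 and -0.060 for the 3 Salt + PQ and PQ pairs), and a replicate block gave 6172 higher, 6483 lower and 15682 differences. Leaving out 1 Salt + PQ or PQ library at a time gave 5572 to 5912 higher, 6010 to 6221 lower and 15325 to 15499 differences. Salt and Control libraries were not left out for the differences. edgeR on recovered reads gave 6403 higher and 6687 lower, and DESeq2 6192 and 6652. The share of higher genes among those called was 48.8%, 64.1% with equal library totals and 53.7% after quantile normalisation. For the difference between the 2 fold changes it was 48.8%, and 68.1% with equal totals, which moved its median over all genes by 0.283, and for Salt over Control 50.9% and 37.0%. Over 251 named genes and 3765 alternative values, 3672 kept their direction and side of the threshold, 79 lost the threshold (25 genes), 12 gained it (5 genes) and 2 changed sign after quantile normalisation, PSBO2 to 0.0144 (adjusted p = 0.716, limma) and LHCB1.1 to 0.1271 (adjusted p = 0.00912, limma). The cause was not tested. Of 44 list medians, 7 changed sign under some alternative.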

Other observations

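Families singled out after their values were seen, by gene symbol or product, are given here as values with no test of the family. Of 15 SAUR genes tested, small auxin-up RNAs of which many promote cell expansion, 13 rose in Salt + PQ and 0 fell (median log2 fold change 1.16), with SAUR22 highest at 2.92 and SAUR28 at 1.59. SAUR22 had 45.6, 28.2 and 37.7 in Salt + PQ against 1.02, 4.07 and 10.8 in PQ. Its Control libraries had 52.7, 34.0 and 57.4. SAUR28 had 22.8, 28.2 and 24.5 in Salt + PQ against 12.2, 4.07 and 8.61 in PQ. Its Control libraries had 12.8, 16.2 and 15.9. Counts of both were low in PQ. Of 9 β-tubulin (TUB) genes, 7 rose and 1 fell, and TUB5 had 6919, 7149 and 6731 in Salt + PQ against 3151, 2816 and 2772 in PQ. TUB5 was higher still in Control, at 13118, 13404 and 13355. In Salt over Control 2 of the SAUR genes were higher and 9 lower, and 9 of the TUB genes were lower.

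Of 13 SDH genes, most of them subunits of mitochondrial succinate dehydrogenase, 12 fell and 0 rose (median -0.36), SDH2-3 by 1.14. Of 11 late embryogenesis abundant family genes, 8 fell and 0 rose (median -1.51). Of 13 laccases, 9 fell and 1 rose (median -0.61), LAC1 by 1.54, and of 9 root hair specific RHS genes, 6 fell and 0 rose (median -0.49). Root marker sums were lower in Salt + PQ too, and their part in this was not tested. In Salt over Control all 9 RHS genes were higher (median 1.48). The root marker sums were lower there, at 121420 to 129534 in Salt and 219462 to 231792 in Control. In Salt over Control 7 SDH genes were higher and 4 lower, 7 late embryogenesis abundant genes higher and 2 lower, and 3 laccases higher and 1 lower. Of 8 MCM genes, subunits of the replicative helicase and their relatives, 6 fell and 1 rose (median -0.56), whereas of 14 mitotic cyclin and CDKB genes 3 rose and 2 fell. In Salt over Control 7 MCM genes were lower and 0 higher.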
